A study of Mus musculus with 9 samples.

Results

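The genes described here are 6 mouse selenoprotein genes, Gpx1, Gpx3, Selenow, Selenoh, Selenom and Msrb1, of 24 selenoprotein genes and 55536 genes in the count table. They were listed because the mRNA of such genes is known to depend on the supply of selenium. They were also chosen from measured values of these libraries: Gpx1 and Selenow were higher after wild-type exosomes and lower after ApoE-deficient exosomes. Those values are therefore given for both genes as a description, with no p. Counts of called members include both genes and are a description too. The other 4 members were placed on the list with results of the same libraries known, so their adjusted p-values say whether a difference exceeded the spread between libraries and are not independent support for the list. All 6 members passed the filter on low counts.

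The libraries are RNA-seq of bone marrow-derived macrophages (BMDM), 3 in each of 3 groups. All recipient cells were labelled wild-type in genotype and came from male mice aged 6 to 12 weeks. Marrow cells were grown with 10% fetal bovine serum and turned into macrophages over 6 days with M-CSF, the macrophage growth factor, at 25 ng/mL. The first group then received PBS, the vehicle, for 18 hours. The second received wild-type exosomes, that is small secreted vesicles from BMDM of wild-type mice, at 2e+09 particles/mL for 18 hours. The third received exosomes from BMDM of mice lacking ApoE, the lipid carrier protein, at the same dose and time. No source used here gives the strain, the ApoE allele or the selenium content of medium, serum and vesicles. The 3 libraries of a group are called biological replicates, but no source used here says whether they came from separate mice or vesicle preparations, so a p-value here reflects only how these libraries vary.

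Selenoproteins hold selenocysteine, an amino acid inserted at a UGA codon that would otherwise stop translation. Insertion needs a hairpin in the 3′ untranslated region of the mRNA, the SECIS element, and selenium in the form of a charged tRNA. When selenium is scarce, the UGA of some selenoprotein mRNAs is read as a stop ahead of an exon junction, and nonsense-mediated decay can remove the mRNA. Gpx1 is the best known mRNA of this kind, whereas Gpx4 mRNA is known as resistant. In macrophages, selenoproteins are known for the removal of peroxides and the repair of oxidised methionine.

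The selenocysteine codon is shown for all 6 members, because it is the site in the mRNA that selenium is needed to read through. All 24 selenoprotein genes have such a codon, so it does not mark the members among them. Each line gives 15 coding bases on either side of the selenocysteine codon of the mRNA, 5′ to 3′, from the GENCODE M21 transcripts of GRCm38. Capitals mark the selenocysteine codon TGA and, where present, a cysteine codon TGT 3 codons before it.
Gpx1: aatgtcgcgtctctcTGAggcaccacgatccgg
Gpx3: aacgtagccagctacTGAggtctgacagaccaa
Selenow: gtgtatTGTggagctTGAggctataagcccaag
Selenoh: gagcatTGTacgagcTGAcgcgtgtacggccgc
Selenom: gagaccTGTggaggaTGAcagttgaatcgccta
Msrb1: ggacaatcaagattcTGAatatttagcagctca

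Selenow, Selenoh and Selenom shared the cysteine codon 3 codons before the TGA, which encodes the redox motif of thioredoxin-like selenoproteins, and Gpx1, Gpx3 and Msrb1 did not have it. Among the other 18 selenoprotein genes, 3 had it. A G followed the TGA directly in Gpx1, Gpx3 and Selenow, as it did in 9 of the other 18.

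The members lie on 5 chromosomes of GRCm38. Gpx1 (ENSMUSG00000063856) spans chr9:108338903-108340343 on the plus strand, with its selenocysteine codon at chr9:108339451-108339453 in exon 1 of 2. Gpx3 spans chr11:54902453-54910377 on the plus strand, with the codon at chr11:54907256-54907258 in exon 2 of 5. Selenow spans chr7:15917208-15922402 on the minus strand, with the codon at chr7:15920464-15920466 in exon 2 of 6. All of these codons are in coding sequence. Selenoh spans chr2:84669215-84670770 on the minus strand, with the codon at chr2:84670381-84670383 in exon 2 of 3. Selenom spans chr11:3514684-3517351 on the plus strand, with the codon at chr11:3516273-3516275 in exon 2 of 5. Msrb1 spans chr17:24736642-24742778 on the plus strand, with the codon at chr17:24740158-24740160 in exon 3 of 4. No exon of a member overlapped an exon of another gene, and none of their 50-base mRNA words occurred in transcripts of another gene.

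Every member had an exon junction downstream of its selenocysteine codon, which held for 9 of the other 18 selenoprotein genes. The distance from the codon to the last junction was 105 bases in Gpx1, 240 in Gpx3, 243 in Selenow, 136 in Selenoh and 135 in Selenom. Msrb1 stood apart with 34 bases, and its codon was number 95 of 116, near the end of the coding sequence. In Selenow, by contrast, it was codon 13 of 88.

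**Figure D1:**
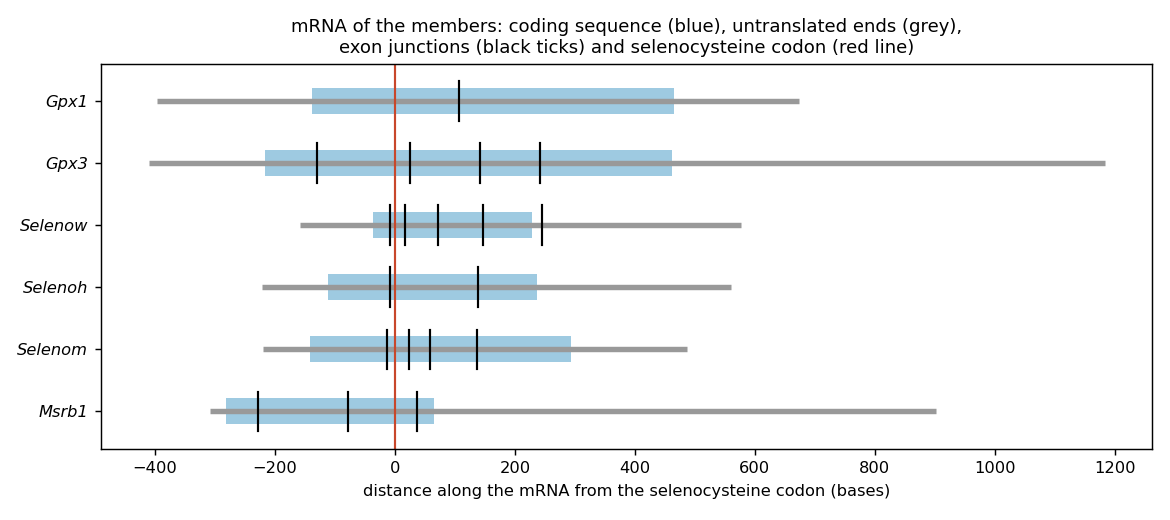
Maps of the 6 mRNAs, aligned at the selenocysteine codon (red line), with distance in bases on the horizontal axis, coding sequence in blue, untranslated ends in grey and exon junctions as black ticks. Every mRNA has a junction to the right of the red line, and in Msrb1 the last of them is 34 bases away.

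Total counts per library were 28581306 to 35929596, with 17150 to 18680 genes detected. Mitochondrial genes took 1.77% to 2.08% of the counts and ribosomal protein genes 0.434% to 0.453%. All pairs of libraries differed by more than sampling noise, so all 9 were kept. On the first principal component of the 13815 genes tested (15.2% of the variance) wild-type exosome replicate 3 stood at 57.5 and the others at -16.8 to 3.43. On the second (15.2%) wild-type exosome replicate 2 stood at -45.4 and ApoE-deficient exosome replicate 2 at 38.0, the others at -7.07 to 17.8. Without wild-type exosome replicate 3, the log2 fold changes of wild-type exosomes against PBS were 0.53 for Gpx1, 0.57 for Gpx3, 0.80 for Selenow, 0.85 for Selenoh and 0.48 for Selenom. Without wild-type exosome replicate 2 they were 0.52, 0.56, 0.86, 0.65 and 0.58. Between the exosome groups, Gpx1 and Selenow were at -0.76 and -0.99 without ApoE-deficient exosome replicate 2. The values with all libraries follow, with the calls that a single library ended. Of 10 macrophage markers listed to check the cell type, 10 were detected, at a summed level of 21050 to 24210 CPM. Haemoglobin genes were at 0. Of 10 stromal markers 2, Adipoq and Lum, were at 0, while Col1a1 had 147 to 1263 and Col1a2 25 to 903 counts per library. The neutrophil gene Ngp had 48 to 394 counts. Apoe itself, the gene missing in the exosome donors, had log2 fold changes of 0.03 and -0.03 against PBS in the recipient cells, with adjusted p = 0.607 and 0.729 by edgeR's quasi-likelihood test, and it was -0.06 between the exosome groups (adjusted p = 0.384).

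CPM are counts per 1e+06 counts of a library, here after scaling by TMM factors, which correct for the makeup of a library. In bulk RNA, fewer cells that express a gene and less of its RNA per cell cannot be told apart. Levels of different genes were compared per kilobase of mRNA. Among the 6 members, Gpx1 had the highest level per kilobase in PBS libraries, 366.8 ± 14.5 CPM per kb (SD, n = 3). Next among them were Msrb1 at 148.4 ± 8.14 and Selenow at 51.5 ± 5.98. Gpx3 at 30.5 ± 1.05 and Selenom at 28.4 ± 2.30 CPM per kb overlapped between libraries, and Selenoh was lowest at 8.37 ± 2.07. The order held in the wild-type exosome libraries, where Gpx3 and Selenom again overlapped. In the ApoE-deficient exosome libraries Selenom was at 30.6 ± 2.54 and Gpx3 at 30.3 ± 1.03 CPM per kb, also within each other's range.

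Gpx1 encodes the cytosolic glutathione peroxidase that reduces hydrogen peroxide. Its level was 392.7, 377.9 and 409.0 CPM in the PBS libraries, 570.6, 559.9 and 551.6 after wild-type exosomes, and 333.0, 345.0 and 330.3 after ApoE-deficient exosomes. The 3 groups did not overlap, with the wild-type exosome libraries highest and the ApoE-deficient ones lowest. Against PBS, Gpx1 was 1.43-fold higher with wild-type exosomes (log2 fold change 0.51 ± 0.035 SE) and 14.5% lower with ApoE-deficient exosomes (-0.23 ± 0.035). ApoE-deficient exosomes gave a level 40.1% below that with wild-type exosomes (-0.74 ± 0.035). As single libraries were left out, the log2 fold change against PBS ranged from 0.49 to 0.54 for wild-type and -0.25 to -0.20 for ApoE-deficient exosomes. These ranges are a description, since values of the same libraries chose Gpx1.

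Gpx3 encodes the secreted, extracellular glutathione peroxidase. It stood at 49.8, 46.7 and 49.3 CPM with PBS, at 76.3, 67.6 and 66.6 with wild-type exosomes and at 49.4, 46.4 and 49.1 with ApoE-deficient exosomes. The PBS and ApoE-deficient libraries covered the same range, and all wild-type exosome libraries were above it. Gpx3 rose 1.44-fold with wild-type exosomes against PBS (log2 fold change 0.53 ± 0.072 SE, adjusted p = 4.05e-06 by edgeR's quasi-likelihood test). With ApoE-deficient exosomes it differed from PBS by -0.01 ± 0.073 (adjusted p = 0.981), with a 95% interval from -0.16 to 0.14. It was 31.2% lower with ApoE-deficient than with wild-type exosomes (-0.54 ± 0.072, adjusted p = 1.32e-05 by edgeR). So the wild-type exosome libraries alone stood apart for Gpx3, whereas for Gpx1 the ApoE-deficient ones were also below PBS.

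Selenow encodes a small thioredoxin-like protein with a redox motif of cysteine and selenocysteine. Its level was 42.1, 33.3 and 38.3 CPM with PBS, 71.5, 59.9 and 65.7 with wild-type exosomes, and 32.9, 32.3 and 33.4 with ApoE-deficient exosomes. The wild-type exosome libraries were all above the others, while the ApoE-deficient ones reached the lowest PBS library, replicate 2. Against PBS, Selenow was 1.74-fold higher with wild-type exosomes (log2 fold change 0.80 ± 0.085 SE). The difference of ApoE-deficient exosomes from PBS was -0.20 ± 0.087, which was not among the genes called in that comparison. It ranged from -0.29 to -0.12 as single libraries were left out. Selenow was 49.99% lower with ApoE-deficient than with wild-type exosomes (log2 fold change -0.9997 ± 0.086), the largest difference among the 6 members.

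Selenoh encodes a nuclear selenoprotein with a thioredoxin-like fold. It was the least abundant member, with 176 to 410 counts per library. Its levels were 5.94, 8.39 and 5.33 CPM with PBS, 10.1, 13.4 and 10.5 with wild-type exosomes, and 5.07, 8.67 and 7.07 with ApoE-deficient exosomes. All wild-type exosome libraries were above all others, and the remaining 6 were mixed. Selenoh rose 1.73-fold with wild-type exosomes against PBS (log2 fold change 0.79 ± 0.20 SE, adjusted p = 0.0136 by edgeR's quasi-likelihood test). That call was lost without PBS replicate 1 (adjusted p = 0.0762), PBS replicate 3 (0.0960) or wild-type exosome replicate 2 (0.126), all by edgeR. ApoE-deficient exosomes differed from PBS by 0.08 ± 0.20 (95% interval -0.33 to 0.49) and from wild-type exosomes by -0.71 ± 0.20, with adjusted p = 0.947 and 0.101 by edgeR. The latter difference passed when genes of low count were kept (adjusted p = 0.0213).

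Selenom encodes a thioredoxin-like selenoprotein of the endoplasmic reticulum. It was at 19.1, 19.1 and 21.9 CPM with PBS, 28.0, 27.8 and 31.9 with wild-type exosomes, and 19.6, 22.9 and 22.3 with ApoE-deficient exosomes. As with Gpx3, the wild-type exosome libraries were above the other 6, which overlapped. Selenom rose 1.46-fold with wild-type exosomes against PBS (log2 fold change 0.54 ± 0.11 SE, adjusted p = 0.00109 by edgeR's quasi-likelihood test). ApoE-deficient exosomes differed from PBS by 0.11 ± 0.11 (adjusted p = 0.806 by edgeR), with a 95% interval from -0.12 to 0.33. Selenom was 26.2% lower with ApoE-deficient than with wild-type exosomes (-0.44 ± 0.11, adjusted p = 0.0402 by edgeR). Leaving out any of the 6 exosome libraries ended that call, with adjusted p from 0.0591 (without wild-type exosome replicate 1) to 0.324 (without ApoE-deficient exosome replicate 1) by edgeR.

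Msrb1 encodes a methionine sulfoxide reductase, which repairs oxidised methionine in proteins such as actin. Its levels were 188.5, 169.1 and 181.7 CPM with PBS, 187.0, 176.3 and 175.8 with wild-type exosomes, and 195.6, 174.0 and 171.8 with ApoE-deficient exosomes. The 3 groups covered the same range, although its counts of 4980 to 6991 per library were second only to those of Gpx1 among the members. Its log2 fold change was 0.00 ± 0.049 SE for wild-type exosomes against PBS (95% interval -0.10 to 0.10) and 0.01 ± 0.049 for ApoE-deficient exosomes against PBS (-0.09 to 0.11). It was 0.01 ± 0.049 between the exosome groups (-0.09 to 0.11), with adjusted p of 1, 0.981 and 0.992 by edgeR's quasi-likelihood test. With wild-type exosomes against PBS, its interval lay below the differences of the other 5 members, of which Gpx1 and Selenow were chosen from such values. With ApoE-deficient exosomes against PBS, Gpx3 (-0.01), Selenoh (0.08) and Selenom (0.11) lay within its interval. Between the exosome groups its interval lay above the differences of the other 5.

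**Figure D2:**
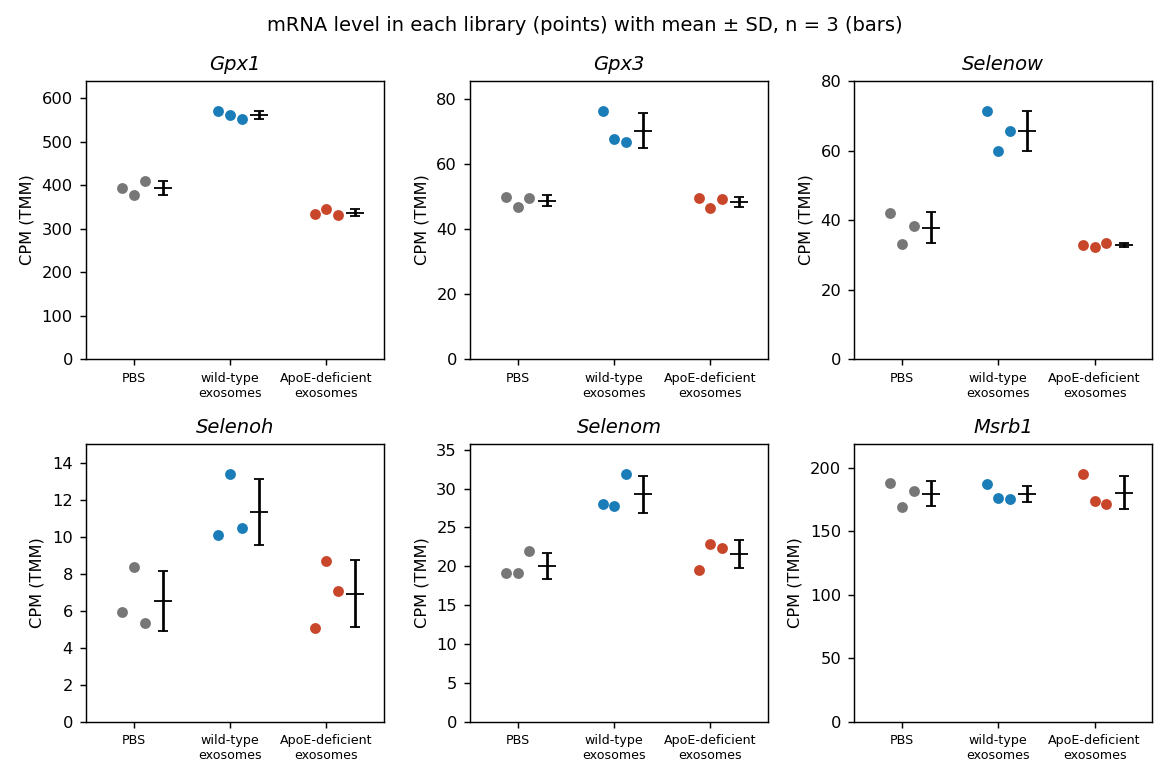
Level of each member in CPM (vertical axis, from 0) in each of the 9 libraries (points), by treatment group on the horizontal axis, with mean and SD of 3 libraries (black). The blue wild-type exosome points are above all others for Gpx1, Gpx3, Selenow, Selenoh and Selenom, and mixed with them for Msrb1. Gpx1 and Selenow were chosen from these values. The share of all tested genes with the same separation is not given. The separation is therefore only a description, here and for the single genes above.

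When wild-type exosomes were compared with PBS, 5 of 6 members were called higher and 0 lower, where 1.93% of all 13815 genes tested were called higher and 2.18% lower. The members' median log2 fold change was 0.54, beside 0.00 over all genes tested, of which the highest 5% were above 0.57. When ApoE-deficient exosomes were compared with PBS, 0 members were called higher and 1, Gpx1, lower, beside 1.82% and 2.41% of all genes. The median was 0.00 both over the members and over all genes. Between the exosome groups, 0 members were called higher and 4, Gpx1, Gpx3, Selenow and Selenom, lower with ApoE-deficient exosomes, beside 0.282% and 0.413% of all genes. There the median of the members was -0.63, beside 0.00 over all genes. Gpx1 and Selenow are counted among these members although they were selected for these differences, and the comparisons share libraries. The counts and medians of the members are therefore a description, and nothing further is read from them.

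**Figure D3:**
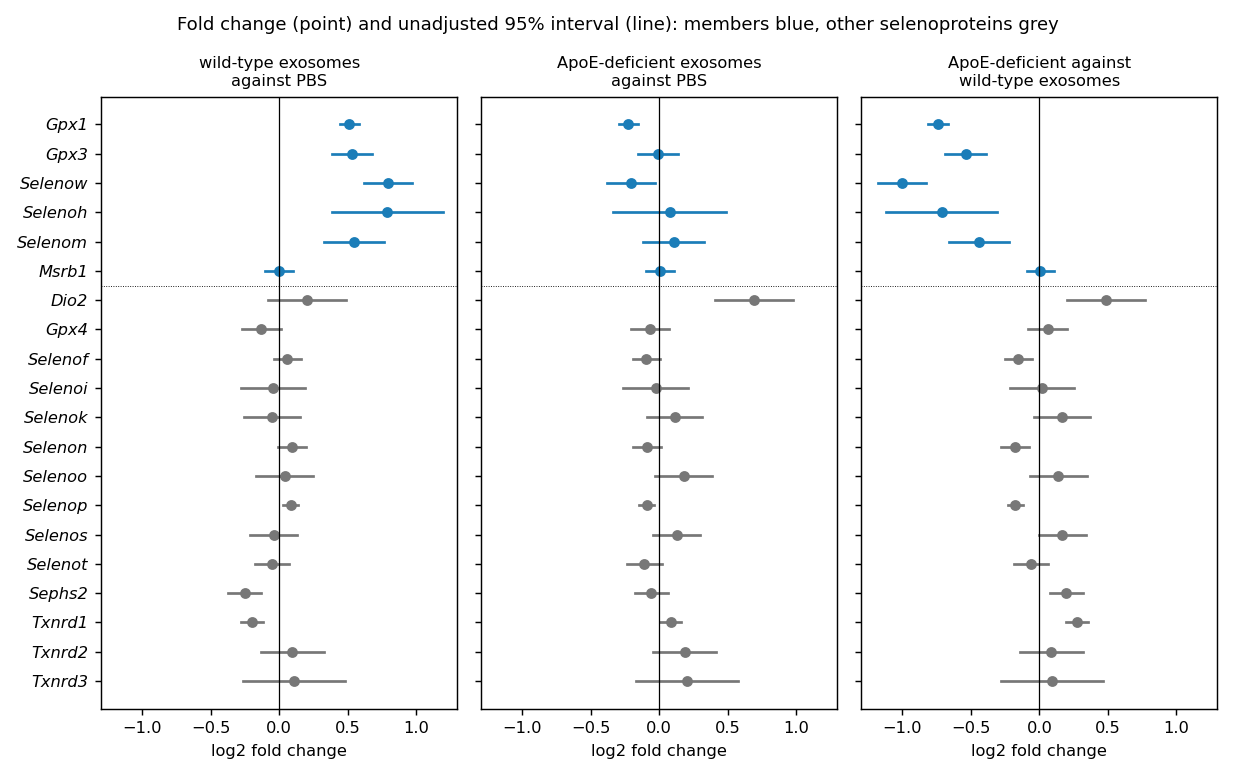
Log2 fold change (horizontal axis) of each of 20 tested selenoprotein genes (vertical axis) in the 3 comparisons, with unadjusted 95% intervals as lines, members in blue and other selenoproteins in grey. Intervals of Gpx1 and Selenow are descriptive, since their values chose them. With wild-type exosomes against PBS, 5 members lie between 0.51 and 0.80 and all 14 other genes between -0.25 and 0.20.

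Summed over the 6 members, the selenoprotein mRNAs made up 659.7 to 703.5 CPM (before TMM scaling) in PBS libraries, 896.8 to 938.3 with wild-type exosomes and 612.7 to 632.0 with ApoE-deficient exosomes. Gpx1 alone accounted for 56.3% to 58.0% of that sum with PBS, 60.5% to 61.9% with wild-type exosomes and 52.4% to 54.8% with ApoE-deficient exosomes. The sum therefore mainly follows Gpx1.

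Of the other 18 selenoprotein genes, 14 passed the filter. With wild-type exosomes against PBS, 0 were called higher and 2 lower by edgeR, with a median log2 fold change of 0.00. At an unadjusted p under 0.05, and by DESeq2 and limma-voom, 1 was higher and 2 lower. The share of all genes passing an unadjusted p is not given. Counts at that cut-off, here and for the lists below, are therefore only a description. With ApoE-deficient exosomes against PBS 1 was higher and 1 lower (median 0.03), and between the exosome groups 1 was higher and 1 lower (median 0.09). At an unadjusted p under 0.05, 2 were higher and 1 lower with ApoE-deficient exosomes against PBS. Between the exosome groups 3 were higher and 3 lower at that cut-off. DESeq2 called 1 higher and 1 lower against PBS, and 2 and 2 between the exosome groups, and limma-voom 1 and 1 in both. Gpx2, Dio3 and Selenov were at 0 in every library and Dio1 had at most 3 counts.

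Txnrd1, the cytosolic thioredoxin reductase, was 524.5 ± 34.4 CPM with PBS, 458.1 ± 27.2 with wild-type exosomes and 555.3 ± 5.33 with ApoE-deficient exosomes (SD, n = 3). It fell with wild-type exosomes against PBS (log2 fold change -0.20 ± 0.039 SE, adjusted p = 0.00131 by edgeR's quasi-likelihood test), and the highest wild-type library, at 489.4, overlapped the lowest PBS library, at 487.4. It was higher with ApoE-deficient than with wild-type exosomes (0.28 ± 0.039, adjusted p = 3.48e-05 by edgeR), with no overlap. Both directions were opposite to those of Gpx1.

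Sephs2 encodes the enzyme that makes selenophosphate, the selenium donor for selenocysteine, and is itself a selenoprotein. Its mean fell from 128.3 CPM with PBS to 107.6 with wild-type exosomes (log2 fold change -0.25 ± 0.060 SE, adjusted p = 0.00722 by edgeR's quasi-likelihood test). The call was lost without wild-type exosome replicate 2 (adjusted p = 0.0799) or replicate 3 (0.0659), by edgeR. In addition, 36.4% of the exon length of Sephs2 overlapped exons of another gene, so its counts are uncertain. Dio2, the deiodinase that activates thyroid hormone, rose from 10.2 CPM with PBS to 16.4 with ApoE-deficient exosomes (0.69 ± 0.14, adjusted p = 0.00133 by edgeR). It was 11.7 with wild-type exosomes, and the difference between the exosome groups was 0.49 ± 0.14 (adjusted p = 0.118 by edgeR).

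Selenop encodes the secreted carrier of selenium, which delivers it to other cells, and was the most abundant selenoprotein mRNA. Its levels were 2023, 1924 and 1960 CPM with PBS, 2086, 2075 and 2105 with wild-type exosomes, and 1864, 1874 and 1812 with ApoE-deficient exosomes. The groups did not overlap and had the same order as for Gpx1, with smaller differences. Selenop was 0.09 ± 0.027 higher in log2 with wild-type exosomes against PBS (adjusted p = 0.0646) and -0.09 ± 0.027 with ApoE-deficient exosomes (adjusted p = 0.0453), by edgeR. The latter call was lost under upper-quartile scaling (adjusted p = 0.0618), with genes of low count kept (0.131), and with most single libraries left out. Between the exosome groups it was 11.4% lower with ApoE-deficient exosomes (-0.18 ± 0.027, adjusted p = 0.000118 by edgeR). Reads of the antisense gene Ccdc152 may be counted in it, since 15.4% of the exon length of Selenop overlapped exons of another gene and the use of strand is not stated.

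Gpx4, the lipid peroxide reductase and the textbook contrast to Gpx1, was 69.1 ± 6.17, 63.2 ± 3.73 and 65.9 ± 0.441 CPM in the PBS, wild-type and ApoE-deficient exosome groups (SD, n = 3). Its log2 fold changes against PBS were -0.13 ± 0.069 and -0.07 ± 0.069 SE (adjusted p = 0.425 and 0.795 by edgeR's quasi-likelihood test). This level is uncertain, because 68.9% of the 50-base words of its mRNA also occur in transcripts of other genes, among them Gpx4 pseudogenes. Selenon and Selenof, proteins of the endoplasmic reticulum, differed between the exosome groups by -0.18 ± 0.051 and -0.15 ± 0.048 without passing (adjusted p = 0.103 and 0.179 by edgeR). Txnrd2, Txnrd3, Selenoi, Selenok, Selenoo, Selenos and Selenot were not called in any of the 3 comparisons.

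The position of the selenocysteine codon was set beside the fold changes as a description of 20 genes, with no test. With wild-type exosomes against PBS, the 5 members that were higher had the last junction 105 to 243 bases downstream of the codon. That range was read from members already known to be higher. Among the other tested genes with a junction downstream, Selenok at 5 bases and Selenof at 78 had log2 fold changes of -0.05 and 0.06. Those of Selenon at 216 bases, Gpx4 at 342, Selenop at 357 and Selenot at 470 bases were 0.09, -0.13, 0.09 and -0.05. None of these genes was called in that comparison, and of them only Selenon lay within the distances of the 5 members. Of the other selenoproteins called in at least 1 comparison, Txnrd1, Sephs2 and Dio2 had no junction downstream of the first selenocysteine codon, and Selenop had its last junction 357 bases downstream.

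**Figure D4:**
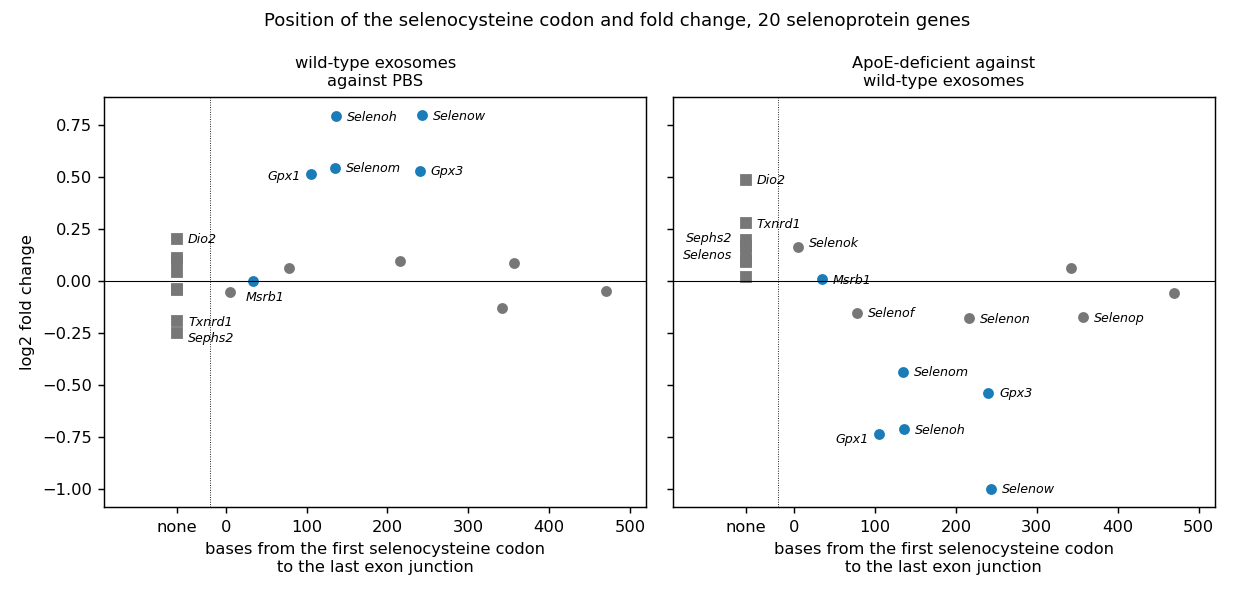
Log2 fold change (vertical axis) against the distance in bases from the first selenocysteine codon to the last exon junction (horizontal axis; squares at none have no junction downstream) for 20 selenoprotein genes, members in blue and others in grey, in 2 comparisons. The 5 members that were higher with wild-type exosomes lie between 105 and 243 bases, and Msrb1 at 34 bases lies at 0.00. Selenon, not a member, lies at 216 bases and 0.09 in that comparison.

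The machinery that makes and inserts selenocysteine, with receptors that take up its carrier, was followed in a list of 18 genes, of which 17 were tested. With wild-type exosomes against PBS 0 of them were called by edgeR, with a median log2 fold change of 0.02, whereas 3 were higher and 1 lower at an unadjusted p under 0.05, and DESeq2 and limma-voom each called 1 higher. With ApoE-deficient exosomes against PBS 1 was higher, Lrp1, an endocytic receptor of the lipoprotein receptor family, at 6314 against 6764 CPM (0.10 ± 0.025 SE, adjusted p = 0.0109 by edgeR's quasi-likelihood test). Between the exosome groups 1 was higher with ApoE-deficient exosomes, Sars, the enzyme that charges tRNA with serine, at 85.6 against 101.3 CPM (0.24 ± 0.060, adjusted p = 0.0397 by edgeR). Both calls were lost when some single libraries were left out, with adjusted p up to 0.108 for Lrp1 and 0.257 for Sars by edgeR.

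Of 14 factors of nonsense-mediated decay, 0 were called in each of the 3 comparisons by edgeR, with medians of -0.01, 0.05 and 0.04. At an unadjusted p under 0.05 there were 0 with wild-type exosomes, 1 lower with ApoE-deficient exosomes and 1 higher between the exosome groups, and DESeq2 and limma-voom also called 0. Upf1, the helicase of the pathway, was 144.6, 141.0 and 151.1 CPM, and Smg1, the kinase that acts on it, 315.5, 313.8 and 316.4 CPM in the PBS, wild-type and ApoE-deficient exosome groups.

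Genes that reduce peroxides and thiols without selenocysteine were also followed. Of 10 tested relatives in which cysteine takes the place of selenocysteine or that share the thiol systems, 2 were lower with wild-type exosomes against PBS and 0 higher. These were Gsr, glutathione reductase, at 114.0 against 96.3 CPM (log2 fold change -0.24 ± 0.059 SE), and Glrx, glutaredoxin, at 50.6 against 39.8 CPM (-0.35 ± 0.084). Their adjusted p-values were 0.0106 and 0.00942 by edgeR's quasi-likelihood test. Glrx was also lower with ApoE-deficient exosomes, at 39.0 CPM (-0.38 ± 0.084, adjusted p = 0.00357 by edgeR), and 0 genes of the list were called between the exosome groups by edgeR, DESeq2 or limma-voom, with 1 higher at an unadjusted p under 0.05. The calls with wild-type exosomes were lost without PBS replicate 1 or wild-type exosome replicate 3 for Gsr (adjusted p = 0.138 and 0.0790), and without any of 4 libraries for Glrx (0.0533 to 0.0695), by edgeR.

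Of 12 other peroxide and glutathione genes, 2 were lower with wild-type exosomes against PBS and 0 higher. With ApoE-deficient exosomes against PBS 0 were called by edgeR and DESeq2 and 2 higher by limma-voom, with 1 higher and 2 lower at an unadjusted p under 0.05. Gclm and Gclc encode the subunits of the enzyme that starts glutathione synthesis. Gclm was 372.0 CPM with PBS and 266.5 with wild-type exosomes (log2 fold change -0.48 ± 0.093 SE, adjusted p = 0.0328), and Gclc 91.3 and 78.8 CPM (-0.21 ± 0.061, adjusted p = 0.0362), by edgeR's quasi-likelihood test. Both calls were lost with some single libraries left out, with adjusted p up to 0.140 for Gclm and 0.331 for Gclc. Between the exosome groups 2 were higher with ApoE-deficient exosomes, Prdx1, a peroxiredoxin, at 550.0 against 638.1 CPM (0.21 ± 0.037, adjusted p = 0.000749), and Gclc (0.25 ± 0.061, adjusted p = 0.0345), by edgeR. The call of Gclc was lost with some libraries left out (adjusted p up to 0.268), and that of Prdx1 with none. Gclm was 354.3 CPM with ApoE-deficient exosomes and was not called between the exosome groups (adjusted p = 0.179 by edgeR). At an unadjusted p under 0.05, 6 genes of the list were lower with wild-type exosomes against PBS and 5 higher between the exosome groups. DESeq2 called 3 and 4 of them, and limma-voom 2 and 4. The share of all genes passing the unadjusted cut-off is not given, so the unadjusted counts are a description.

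Likeness of pattern to Gpx1 and Selenow was measured as the root mean square difference of mean-centred log2 CPM over the 9 libraries. Candidates were 9249 genes with a mean of at least 5 CPM, without the members and without predicted or clone-named genes. A gene with the same level in all libraries would lie at 0.310 from Gpx1 and 0.437 from Selenow. The 5 genes nearest to Gpx1 were Mex3b at 0.140, Pclaf at 0.147, Cyp51 at 0.174, Malsu1 at 0.177 and Stil at 0.181, with a median of 0.328 over all candidates. Mex3b encodes an RNA-binding protein and Cyp51 an enzyme of cholesterol synthesis. Mex3b was 10.3 CPM with PBS, 13.6 with wild-type and 9.41 with ApoE-deficient exosomes. Nearest to Selenow were Mex3b at 0.236, Stil at 0.241, Slc7a2 at 0.264, Pclaf at 0.288 and Tent5c at 0.291, with a median of 0.449. The distances of the members from Gpx1 were 0.115 for Gpx3, 0.154 for Selenow, 0.174 for Selenom, 0.291 for Selenoh and 0.317 for Msrb1. They are given as a description, since the pattern of Gpx1 was used in the choice and the list was drawn up with these results known.

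Cell type markers moved with the treatments to some extent. Of 10 macrophage markers, 1 was higher and 6 lower with wild-type exosomes against PBS, and 0 higher and 7 lower with ApoE-deficient exosomes. Between the exosome groups, 0 were higher and 1, Fcgr1, lower with ApoE-deficient exosomes (log2 fold change -0.39). Their summed level was 22980 to 24210 CPM with PBS, 21290 to 21960 with wild-type and 21050 to 22040 with ApoE-deficient exosomes. Lyz2 was the largest part of that sum, at 14050, 12870 and 13100 CPM in the PBS, wild-type and ApoE-deficient exosome groups. With wild-type exosomes against PBS, Cd68 was the marker called higher (log2 fold change 0.09). Those called lower were Cd14 (-0.36), Itgam (-0.36), Csf1r (-0.22), Fcgr1 (-0.18), Adgre1 (-0.16) and Lyz2 (-0.13). Mertk (-0.02), Mrc1 (-0.02) and Spi1 (-0.10) were not called there. The summed level of 10 stromal markers was 9.11 to 64.6, 16.9 to 30.3 and 5.85 to 25.3 CPM in the PBS, wild-type and ApoE-deficient groups. Of these markers, Lum and Adipoq were at 0, and Col1a1 and Col1a2 had the highest means over the 9 libraries, 11.9 and 8.74 CPM. The summed level of 10 neutrophil markers was 21.0 to 29.9, 10.4 to 30.7 and 3.78 to 18.1 CPM, with Prtn3 at 0. Lymphoid markers summed to at most 2.16 CPM and dendritic cell markers to 20.7 to 25.5 CPM in any library. Of 10 erythroid markers 7 were at 0, haemoglobins among them, and the rest, nearly all of it the transferrin receptor Tfrc, summed to 43.4 to 45.8, 49.98 to 56.1 and 52.5 to 53.1 CPM. The part of any of these shifts in the differences of the members was not tested.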

How the data were processed

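The authors deposited raw counts per Ensembl gene for 9 libraries. Per the labels' protocols, total RNA went into an mRNA library kit. The submitters' processing notes name STAR 2.7.5c and GRCm38. No source used here gives the annotation release, the strand setting or any trimming. All 55536 gene IDs matched a symbol in GENCODE M21, which also gave coordinates, mRNA lengths and selenocysteine codons, read from the principal transcript.

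Counts were tested with edgeR 4.0.16 in R 4.3.3. The filter on low counts (filterByExpr, minimum count 10) left 13815 genes, and TMM factors scaled the libraries. The robust quasi-likelihood model held all 9 libraries and had no term but the group. A call needed a p-value of at most 0.05 after Benjamini-Hochberg adjustment over the 13815 genes. Standard errors came from the F statistics or, where F was under 0.05, from the fitted weights. CPM is given with the SD over 3 libraries. With 3 libraries against 3, no exact permutation test of a single gene can reach the threshold, and none was run.

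The members and the gene lists were chosen with earlier results of these data known. Named were all members, every tested selenoprotein, in the other gene lists of the selenium and peroxide systems the genes called in any comparison or else up to 2 with the highest level, and the 5 genes nearest in pattern to Gpx1 and to Selenow. Of the cell type markers, summed levels and counts are given, and single markers only where they make up or depart from these. Alternatives were RLE and upper-quartile factors, DESeq2 1.42.0, limma-voom (limma 3.58.1), no filter, only the 6 libraries of a comparison, removal of a trend with length and GC, a replicate block, and each library left out. The fitting was tested on simulated counts. A chi-square of the counts of each pair of libraries, divided by the number of genes, was 6.76 to 10.2 for libraries of the same group and 7.70 to 18.4 for libraries of different groups.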

Additional observations from a re-analysis of the deposited data

How the results depend on the processing

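The direction of Gpx1 and Selenow chose them and is not read as stable. Both calls of Gpx3 and the call of Selenom with wild-type exosomes against PBS were kept throughout. The number of libraries, 3 a group, limits the precision. Selenoh had the fewest counts and the widest SE of the members, and what sets its spread was not tested. Leaving out 1 library at a time changed the genes called to 408 to 536 (wild-type exosomes against PBS), 421 to 586 (ApoE-deficient exosomes against PBS) and 52 to 109 (between the exosome groups). Members called ranged over 4 to 5 higher with wild-type exosomes against PBS and 3 to 4 lower between the exosome groups. Gpx1 and Selenow, selected for these differences, are among them, so these counts are a description. Among all 20 tested selenoproteins, 4 to 5 were higher and 1 to 2 lower with wild-type exosomes against PBS. With ApoE-deficient exosomes against PBS 1 to 2 were lower, and between the exosome groups 1 to 2 were higher and 4 to 5 lower. The 20 include Gpx1 and Selenow, so these counts are a description too. With all libraries kept, 0 of the 14 tested selenoproteins that are not members were higher with wild-type exosomes against PBS.

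DESeq2 gave Selenoh no adjusted p for wild-type exosomes against PBS, so it counts 4 members there. It called 147 genes between the exosome groups, against 96 by edgeR. Selenoproteins called higher there were 2, against 1, under DESeq2, without the filter and with the replicate block, and those lower with ApoE-deficient exosomes against PBS were 1, against 2, with upper-quartile factors, without the filter and with only the 6 libraries compared. The cause was not tested.

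Among members, only differences near 0 changed sign. After removal of the length and GC trend, Msrb1 with wild-type exosomes against PBS was -0.0021 and Gpx3 with ApoE-deficient exosomes against PBS was 0.00396. With single libraries left out, Msrb1 ranged from -0.0406 to 0.0360 for wild-type exosomes against PBS, from -0.0579 to 0.0427 for ApoE-deficient exosomes against PBS and from -0.0587 to 0.0384 between the exosome groups. For ApoE-deficient exosomes against PBS, Gpx3 then ranged from -0.0354 to 0.0211 and Selenoh from -0.108 to 0.298.

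Deviations of same-numbered libraries correlated across genes at -0.035 to 0.040, and those of other numbers at -0.048 to 0.039. The deviations were taken within groups of 3 libraries, so these values cannot settle whether replicate numbers pair the libraries. With the replicate block, 669, 662 and 144 genes were called in the 3 comparisons, against 568, 585 and 96 without it. Selenoh between the exosome groups was then -0.72 (adjusted p = 0.0296 by edgeR).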
